A study of Rattus norvegicus with 192 samples.

Results

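The 10 microglia marker genes measured here were P2ry12, P2ry13, Cx3cr1, Tmem119, Trem2, Fcer1g, Ctss, Aif1, Itgam and Laptm5. They were chosen by name as established markers of the cell type, and they are 10 of the 13336 gene symbols that the array's 22502 probes carry. Each had 1 probe, and all 10 were measured in the prefrontal cortex of 87 rats and the hippocampus of 84 of the same rats. In none of the 24 comparisons of injections, days, prenatal diets and tissues did a member pass the test, nor in the 12 comparisons of adjuvant with saline rats inside a single diet. Few probes of any kind passed. The largest share in a comparison was 0.131% of the probes tested, and in most comparisons it was 0%. In the hippocampus several members varied together across rats, with 1 array per rat. P2ry12 and Ctss of the cortex varied with P2ry12 and Ctss of the same rat's hippocampus.

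The rats were adult female Sprague Dawley daughters of dams on 3 diets, and a group was a diet, an injection and a day. Ethanol dams drank a liquid diet in which ethanol supplied 36% of the calories, pairfed dams were given matched amounts of a liquid diet with maltose-dextrin in its place, and control dams ate chow. These diets lasted for gestation days 1 to 21. At 50 to 65 days of age the daughters received an injection at the tail base, either 0.1 ml of complete Freund's adjuvant (12 mg/ml), a suspension of killed mycobacteria that brings on arthritis, or saline. Brains were collected 16 or 39 days later. In the cortex each adjuvant group held 9 rats. In the hippocampus the adjuvant groups also held 9, except 8 control and 7 pairfed rats at day 39. Saline groups were smaller, with 5 rats each at day 16 and 6 each at day 39. No source used here names the litters, and every p-value takes the rats as independent of each other.

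Microglia are the resident macrophages of the brain. In undisturbed tissue they carry a set of surface receptors often called homeostatic, and in disease they lower these and raise genes of phagocytosis and lysosomes, often called reactive. Of the homeostatic members, P2ry12 and P2ry13 are purine receptors that let the processes of a microglial cell sense ADP. Cx3cr1 is the receptor for fractalkine, a chemokine displayed by neurons, and Tmem119 is a membrane protein that sets microglia apart from other macrophages. Of the reactive members, Trem2 is a receptor for lipids and cell debris, Fcer1g is the signalling gamma chain of Fc receptors, and Ctss is the lysosomal protease cathepsin S. The other 3 are general myeloid genes. Aif1 encodes the calcium-binding protein Iba1, Itgam the integrin chain CD11b, and Laptm5 a lysosomal membrane protein.

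An array detected 7578 to 10949 probes in the cortex and 8140 to 11235 in the hippocampus (detection p below 0.05). One cortex array went against its label. That of pairfed saline day 16 replicate 3 correlated at 0.119 with its own rat's hippocampus over 44 probes that vary with the rat in both tissues, and at 0.58 with the hippocampus of the rat whose cortex is ethanol saline day 16 replicate 5. The other 83 of 84 rats matched their own array best. The 44 probes were chosen on those 83 rats and without the rat of the mismatched array. The match rate of the 83 is therefore partly built in, and the 0.119 is not on equal terms with their values. The cortex array of ethanol saline day 39 replicate 2 had the fewest detected probes. Both arrays were kept. Without them limma called 0 of 10 members in each of the 19 comparisons that use the cortex, and 12 of 190 fitted member differences, none of them called, changed sign. The correlations between members and between tissues are also given without them. As checks of the dissection, Wfs1, a marker of hippocampal field CA1, stood at 8.26 ± 0.56 in the hippocampus (SD, n = 84) and 7.28 ± 0.49 in the cortex (n = 87) on the log2 scale. Prox1, a marker of the dentate gyrus, was detected in 57 of 84 hippocampus and 31 of 87 cortex arrays. Lct and Rasgrf2, read in the same check, were dim and did not separate the tissues in this way. Lct was detected in 7 of 84 hippocampus and 8 of 87 cortex arrays. Rasgrf2, a gene of upper cortical layers, was detected in 24 of 84 hippocampus and 11 of 87 cortex arrays. Each chip carried a single tissue, so tissue and chip cannot be told apart, and members were not compared in level between tissues.

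The members fell into bright and dim ones. Trem2, Fcer1g, Ctss, Aif1 and P2ry12 were detected in every rat of both tissues, and Laptm5 in 87 of 87 cortex and 83 of 84 hippocampus arrays. P2ry13 was detected in 62 of 87 cortex and 46 of 84 hippocampus arrays, and Cx3cr1 in 37 and 41. Tmem119 was detected in 23 and 25, and Itgam in 32 of each. Many values of these 4 lie near background, so their folds understate any change. All 10 passed the filter for testing, which asked for detection on at least 5 arrays of a tissue. Mean log2 signals in the cortex were 11.51 ± 0.33 for Ctss, 10.41 ± 0.34 for Aif1, 9.79 ± 0.38 for Fcer1g, 9.22 ± 0.41 for Trem2, 7.99 ± 0.43 for Laptm5 and 7.42 ± 0.51 for P2ry12 (SD, n = 87 rats). Signals of different probes are not comparable, and these set the scale for each gene's own differences. In bulk tissue, fewer microglia and less RNA per microglial cell cannot be told apart.

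**Figure D1:**
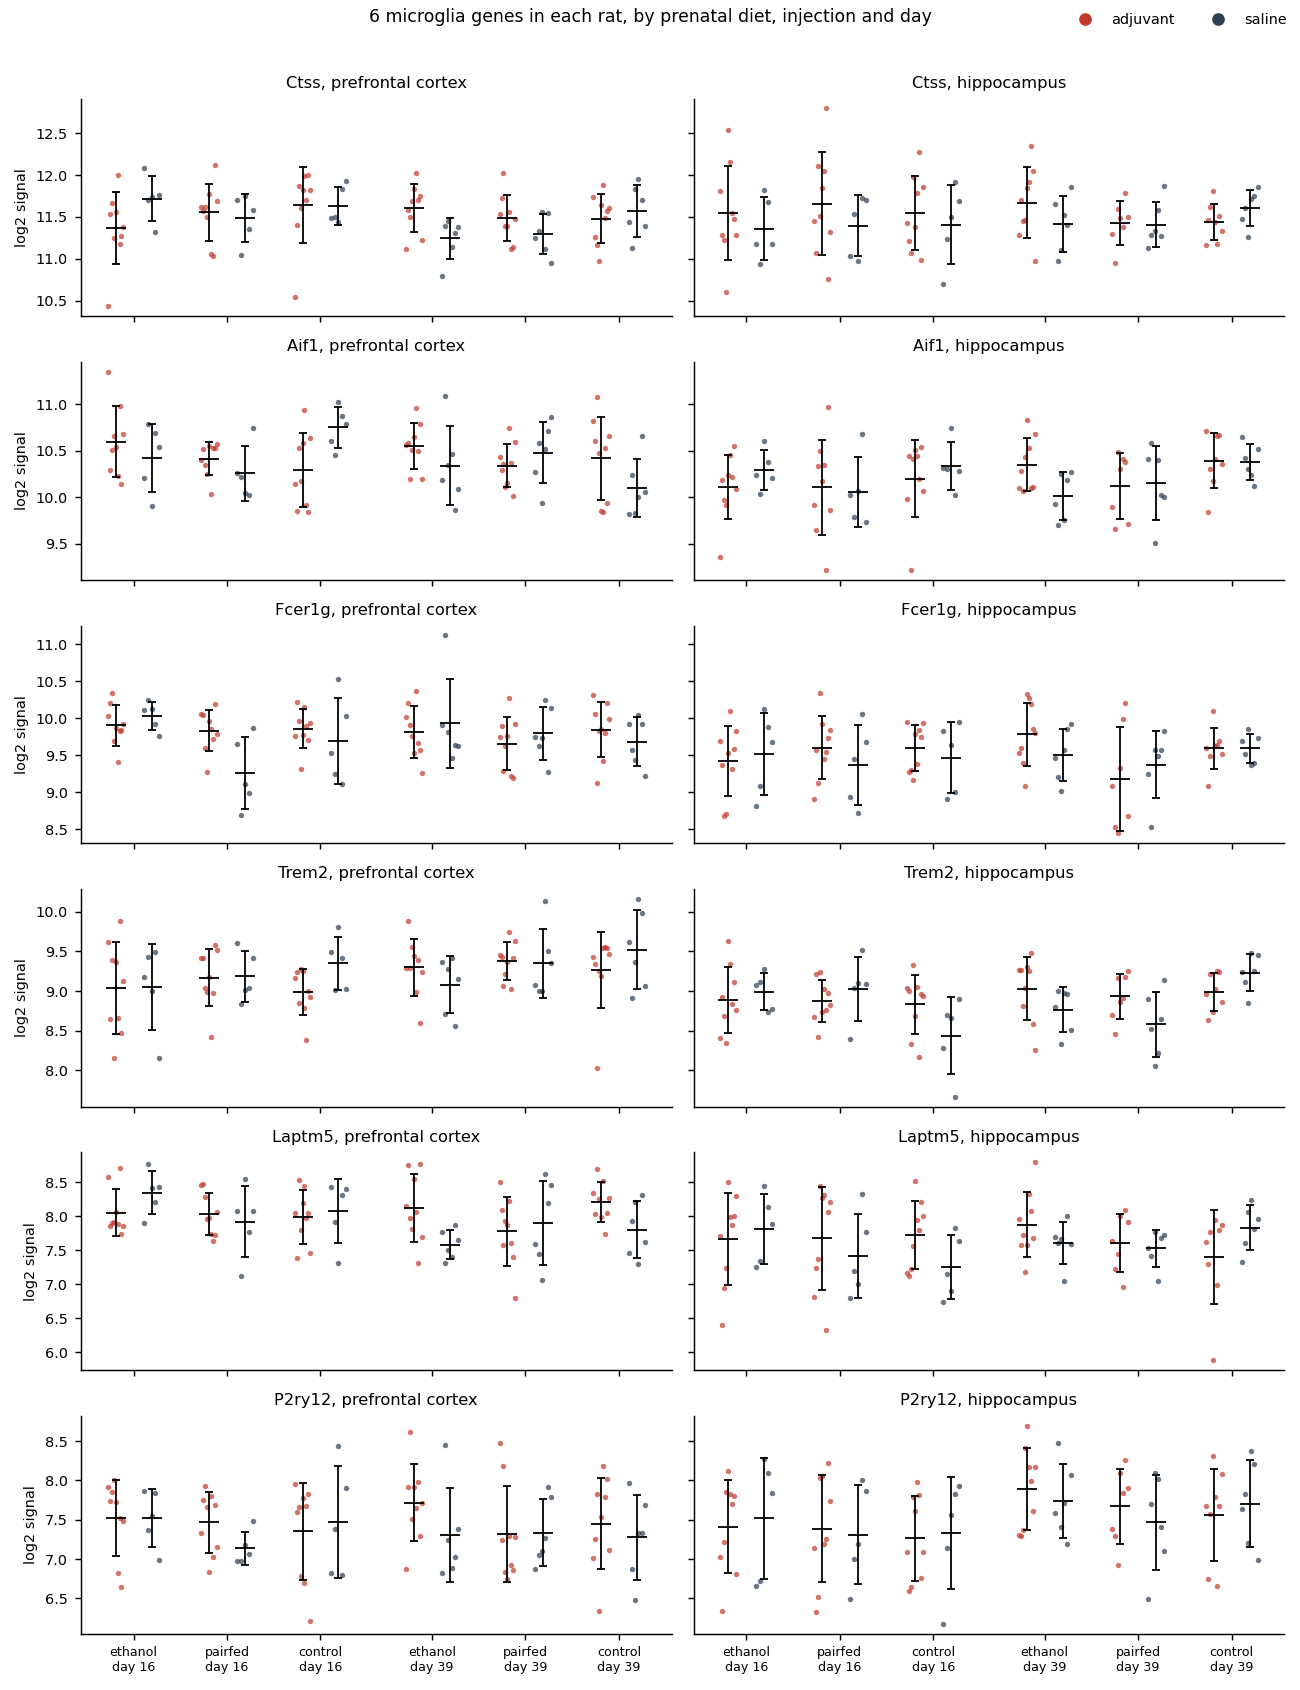
Log2 signal of the 6 bright members in every rat, by prenatal diet and day, with adjuvant rats (red) left of saline rats (dark). Bars give the group mean ± SD. The adjuvant and saline points of a diet and day overlap in all panels, and single rats lie far from their group, such as Laptm5 at 5.88 in a control adjuvant rat of the hippocampus at day 39.

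The first question was whether a peripheral inflammatory challenge moved the members. At day 16 in the cortex limma called 0 of 10 at an adjusted p below 0.05, with 0 also at an unadjusted p below 0.05. Of all 15250 probes tested there, 20 (0.131%) were called, 19 of them higher in adjuvant rats. P2ry12 ran from 6.22 to 8.01 in 27 adjuvant rats (median 7.67), against 6.79 to 8.44 in 15 saline rats (median 7.37). Ctss ran from 10.43 to 12.12 in adjuvant rats (median 11.60), against 11.04 to 12.09 in saline rats (median 11.70). The ranges overlapped for both genes, and the lowest rat of each was an adjuvant rat. The differences were 0.07 ± 0.17 for P2ry12 (95% interval -0.26 to 0.40) and -0.09 ± 0.11 for Ctss (-0.30 to 0.13), as log2 with the standard error of the fit. The member farthest from 0 was P2ry13, at -0.26 ± 0.16 (-0.57 to 0.06, adjusted p = 0.999), and the next was Fcer1g at 0.20 ± 0.12 (-0.03 to 0.43, adjusted p = 0.999). The median over the 10 members was -0.06, beside 0.0016 over all probes, with 4 members higher and 6 lower.

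The hippocampus at day 16 gave 0 of 10 members called, and 0 at an unadjusted p below 0.05. Limma called 9 of all 15320 probes (0.0587%), all higher in adjuvant rats. Ctss was the farthest from 0. It ran from 10.61 to 12.79 in 27 adjuvant rats (median 11.48), against 10.70 to 11.91 in 15 saline rats (median 11.50). The highest adjuvant rats exceeded all saline rats while the medians lay side by side. The fitted difference was 0.24 ± 0.14 (-0.03 to 0.51, adjusted p = 0.788), and under median scaling it was -0.01, while all probes had a median of -0.12. Itgam stood at 0.14 ± 0.14, Laptm5 at 0.14 ± 0.18, Trem2 at 0.09 ± 0.12 and P2ry12 at -0.01 ± 0.18. The median over the members was 0.09, beside -0.0074 over all probes. These signs depend on the settings. Under median scaling Trem2 stood at -0.17, Laptm5 at -0.09 and the members' median at -0.11. The median was -0.02 with a hemoglobin score as a covariate and -0.08 with the replicate number as a block.

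The probes called at day 16 include single genes from lists of blood and vessel markers, among them Vwf of endothelium (0.91 ± 0.14 in the cortex, adjusted p = 3.76e-05). In the cortex 1 of 6 endothelial genes tested was called, with 4 of 6 higher in adjuvant rats and a median of 0.05. Of the neutrophil genes 1 of 5 was called (4 of 5 higher, median 0.04), and of the red blood cell genes 2 of 5 (3 of 5 higher, median 0.45). In the hippocampus 1 of 6 endothelial, 1 of 6 neutrophil and 2 of 6 red blood cell genes were called, with medians of 0.09, 0.0045 and 0.39. In the cortex S100a8 of neutrophils differed by 1.69 ± 0.22 (adjusted p = 4.09e-07) and Hbb-b1 of red blood cells by 0.82 ± 0.16 (adjusted p = 0.00362). In the hippocampus they differed by 1.31 ± 0.23 (adjusted p = 0.00105) and 1.13 ± 0.18 (adjusted p = 1.32e-04). The mean log2 signal of the red blood cell genes ran from 8.29 to 9.62 in adjuvant rats (median 8.94), against 8.19 to 8.81 in saline rats (median 8.54), in the cortex at day 16. Of 10 neutrophil markers on the array, 5 were detected on fewer than 5 cortex arrays, among them Elane and S100a9. Microglia share several members with neutrophils and monocytes, Itgam and Fcer1g among them. With a hemoglobin score as a covariate 0 members were called at day 16 in either tissue, and the part of neutrophils in the members' values was not tested. The mean of the 10 members ran from 7.60 to 8.23 in adjuvant rats (median 7.81), against 7.39 to 8.14 in saline rats (median 7.79), in the same cortex samples.

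At day 39 limma again called 0 of 10 members in each tissue, where it called 0 of all probes (0%) in both. At an unadjusted p below 0.05 there were 814 probes in the cortex and 770 in the hippocampus, with 1 and 0 members among them. That member was Laptm5 of the cortex. It ran from 6.80 to 8.77 in 27 adjuvant rats (median 8.05), against 7.05 to 8.62 in 18 saline rats (median 7.63). All saline values lay inside the range of the adjuvant rats, with a lower median. The difference was 0.29 ± 0.13 (0.04 to 0.54, unadjusted p = 0.0234, adjusted p = 0.918), a 1.22-fold higher signal. P2ry13 stood at 0.26 ± 0.15, Itgam at 0.22 ± 0.12 and P2ry12 at 0.20 ± 0.16 in the cortex (adjusted p = 0.949, 0.949 and 0.955 in limma). In the hippocampus the values ran from -0.05 ± 0.17 for Laptm5 to 0.18 ± 0.16 for P2ry13. The members' median was 0.15 in the cortex, beside 0.0028 over all probes, and 0.02 in the hippocampus, beside -0.0058.

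**Figure D2:**
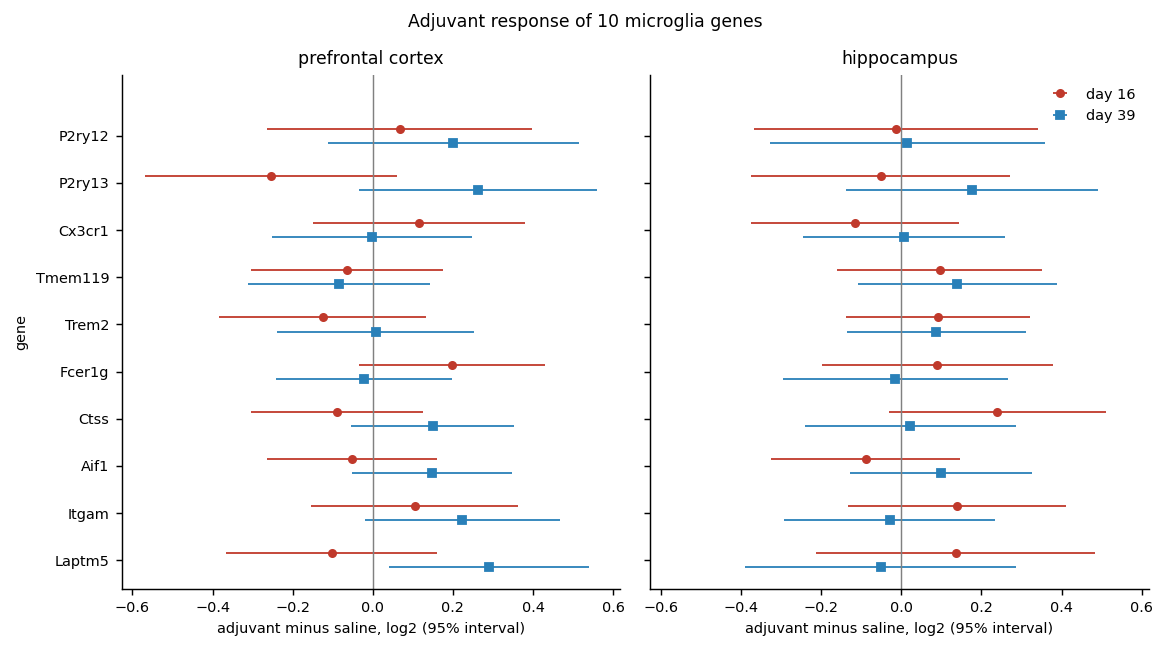
Adjuvant minus saline difference of each member (log2, with its 95% interval from limma) at day 16 (red circles) and day 39 (blue squares), in cortex and hippocampus. All but 1 of the 40 intervals span 0, the exception being Laptm5 of the cortex at day 39 (0.04 to 0.54), and all lie between -0.57 and 0.56.

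The days and the tissues were then compared directly. The adjuvant response at day 39 minus that at day 16 was not called for any member, and 0 of all probes (0%) passed in either tissue. The largest values were both in the cortex, 0.52 ± 0.22 for P2ry13 (unadjusted p = 0.0199) and 0.39 ± 0.18 for Laptm5 (unadjusted p = 0.0344), each at a limma adjusted p of 0.998. P2ry13 was lower in adjuvant rats at day 16 and higher at day 39, in fitted values that did not pass. The response in the hippocampus minus that in the cortex was likewise called for 0 of 10 members at day 16 and at day 39, and for 0 of 14441 probes (0%). Ctss came nearest at day 16, with 0.33 ± 0.17 (-0.01 to 0.66, adjusted p = 0.999), and Laptm5 at day 39, with -0.34 ± 0.21 (-0.75 to 0.07, adjusted p = 0.92).

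In saline rats alone, day 39 was set against day 16, a difference of 23 days in age. Limma called 0 of 10 members and 0 of all probes (0%) in each tissue, with 855 probes at an unadjusted p below 0.05 in the cortex and 1307 in the hippocampus. In the cortex, Laptm5 ran from 7.05 to 8.62 in 18 saline rats at day 39 (median 7.63), against 7.13 to 8.77 in 15 saline rats at day 16 (median 8.21). The lower median at day 39 came with ranges that overlapped almost fully. Its difference was -0.38 ± 0.14 (unadjusted p = 0.0104, adjusted p = 0.874), and that of Ctss was -0.24 ± 0.12 (adjusted p = 0.883). Because the same saline rats of day 39 served as the controls of the adjuvant comparison, the cortex values of Laptm5 in both comparisons share those arrays. In the hippocampus P2ry12 had the lowest adjusted p of any member in the 24 comparisons, leaving aside the 12 inside a single diet, at 0.37 ± 0.20 (-0.03 to 0.76, adjusted p = 0.626).

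Prenatal diet was compared over all injections and days. Between ethanol and control rats limma called 0 of 10 members in each tissue, with 0 of all probes (0%) called and 730 in the cortex and 546 in the hippocampus at an unadjusted p below 0.05. The member differences ran from -0.16 ± 0.11 (Trem2) to 0.16 ± 0.11 (Cx3cr1) in the cortex. In the hippocampus they ran from -0.13 ± 0.10 (Aif1) to 0.18 ± 0.15 (Laptm5). Between ethanol and pairfed rats 0 of 10 members and 0 of all probes (0%) were called. Fcer1g of the cortex stood at 0.26 ± 0.10 (0.06 to 0.46, unadjusted p = 0.0101), with a limma adjusted p of 1. Without the pairfed array that went against its label it was 0.26, and without ethanol saline day 39 replicate 2, where Fcer1g was at 11.12, it was 0.21. Between pairfed and control rats 0 of 10 members and 0 of all probes (0%) were called, and Aif1 of the hippocampus stood at -0.21 ± 0.10 (unadjusted p = 0.0371, adjusted p = 0.997).

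The diets were also compared in saline rats only, the groups without an inflammatory challenge. Ethanol against control and ethanol against pairfed each gave 0 of 10 members called, with 0 of all probes (0%), in both tissues. Trem2 of the cortex was at -0.37 ± 0.18 against control (unadjusted p = 0.0398, limma adjusted p = 0.954). Fcer1g of the cortex was at 0.41 ± 0.16 against pairfed (unadjusted p = 0.0114, adjusted p = 0.998), and at 0.31 ± 0.15 without the 2 arrays that stand apart. In the hippocampus no member had an unadjusted p below 0.05 in either comparison.

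Whether the diet changed the response to adjuvant was tested as a difference of differences at day 16. For ethanol minus control, 0 of 10 members and 0 of all probes (0%) were called, with 812 probes in the cortex and 659 in the hippocampus at an unadjusted p below 0.05. In the cortex Cx3cr1 stood at 0.85 ± 0.33 (0.18 to 1.51) and Aif1 at 0.70 ± 0.27 (0.16 to 1.23), each at an adjusted p of 0.896. For Aif1 the 9 control adjuvant rats ran from 9.84 to 10.94 with a median of 10.17, against 10.61, 10.46, 11.03, 10.87 and 10.79 in the control saline rats. The control saline rats at day 16 were the highest of the 12 cortex groups for Aif1 (10.75 ± 0.22, SD, n = 5), and 5 of 9 adjuvant rats lay below all of them. The difference in control rats was -0.52 ± 0.19 (unadjusted p = 0.00665, adjusted p = 0.425), in a comparison that called 5 probes (0.0328%). For ethanol minus pairfed, 0 of 10 members and 0 of all probes (0%) were called. In the hippocampus only Tmem119 had an unadjusted p below 0.05, at 0.69 ± 0.31 for ethanol minus control (adjusted p = 1).

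Within pairfed rats of the cortex at day 16, Fcer1g was the member farthest from 0. The 9 pairfed adjuvant rats ran from 9.27 to 10.20 with a median of 9.85, against 9.65, 8.70, 9.11, 8.99 and 9.87 in pairfed saline rats. Of the adjuvant rats, 4 of 9 lay above all pairfed saline rats. The fitted difference between pairfed adjuvant and pairfed saline rats was 0.59 ± 0.21 (unadjusted p = 0.00529, adjusted p = 0.782), where 2 probes were called (0.0131%). The third saline value is the array that went against its label, and the fitted difference was 0.63 ± 0.21 without the 2 arrays that stand apart (adjusted p = 0.874). Of the 12 cortex groups, ethanol saline rats at day 16 had the highest mean (10.03 ± 0.19, SD, n = 5) and pairfed saline rats at day 16 the lowest (9.26 ± 0.49, n = 5). The test of ethanol against pairfed responses gave -0.66 ± 0.29 for Fcer1g, with a limma adjusted p of 1.

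Among the comparisons inside a single diet, Laptm5 in ethanol rats of the cortex at day 39 had the lowest adjusted p. Limma called 0 of 10 members there, as were 0 of all probes (0%), with 1310 at an unadjusted p below 0.05. Laptm5 ran from 7.31 to 8.77 in the 9 ethanol adjuvant rats (median 8.07), against 7.30 to 7.87 in the 6 ethanol saline rats (median 7.57). Of the adjuvant rats, 6 of 9 lay above all 6 saline rats. The difference was 0.57 ± 0.22 (unadjusted p = 0.0105, adjusted p = 0.418), and 0.48 ± 0.23 (adjusted p = 0.863) without the arrays that stand apart. P2ry13 there stood at 0.65 ± 0.26 (adjusted p = 0.444), or 0.54 without those arrays, with 9 of 9 adjuvant and 2 of 6 saline arrays detected. In control and pairfed rats 0 of 10 members were called at either day in either tissue, with 0%, 0.00653%, 0.00656%, 0.0131% or 0.0328% of all probes called in these comparisons, and ethanol rats at day 16 had 0 members called with 0% in the cortex and 0.00653% in the hippocampus. In ethanol rats of the hippocampus at day 39 there were likewise 0 members called, with 0% of all probes.

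The 12 group means of each tissue were ordered by level, as a description. Sorted neighbours lie close by construction and the SD is that of single rats, so few gaps can exceed it. The count below therefore cannot show whether groups differ. Of 220 gaps between neighbours, 1 exceeded the pooled SD within groups, that of Fcer1g of the cortex between pairfed saline rats at day 16 and the next group (0.40, pooled SD 0.37). The range from the lowest to the highest group was 0.718 to 2.29 times the pooled SD. It was widest for Trem2 of the hippocampus. The lowest group was control saline rats at day 16, with 8.28, 8.69, 8.66, 7.67 and 8.90, and the highest was control saline rats at day 39, which ran from 8.85 to 9.48 with a median of 9.25. These 2 groups touched but barely overlapped. The range was narrowest for Tmem119 of the cortex, from 5.17 ± 0.28 (n = 5) to 5.44 ± 0.30 (n = 5). P2ry12 and Laptm5 shared their highest hippocampus group, ethanol adjuvant rats at day 39 (7.89 ± 0.52 and 7.87 ± 0.48, n = 9), and Fcer1g and Ctss were highest in it too. Tmem119 was lowest in that same group (4.95 ± 0.43), and P2ry13, Cx3cr1, Trem2, Aif1 and Itgam were highest in other groups.

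The homeostatic members were also set against the reactive ones. For each array the mean of the 4 homeostatic members minus the mean of the 3 reactive members was taken, with every gene centred on its tissue mean. At day 16 it averaged 0.03 ± 0.36 in 27 adjuvant rats and 0.05 ± 0.21 in 15 saline rats in the cortex. In the hippocampus it averaged -0.04 ± 0.34 in adjuvant rats and 0.08 ± 0.30 in saline rats (SD). At day 39 it averaged -0.02 ± 0.39 in 27 adjuvant rats and -0.06 ± 0.25 in 18 saline rats in the cortex. The hippocampus at day 39 averaged 0.0054 ± 0.33 in 24 adjuvant rats and -0.0055 ± 0.34 in 18 saline rats. These SDs describe single rats and not the precision of a mean, and no test was run on this score. P2ry13, Cx3cr1 and Tmem119 lie near background on many arrays, so the homeostatic mean understates any change. The 3 reactive members were detected on every array. The differences between adjuvant and saline rats at day 16 had a median of 0.0015 for homeostatic and -0.09 for reactive members in the cortex, against -0.03 and 0.09 in the hippocampus.

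Other genes of microglia, taken from lists that do not hold the members, were examined alongside. Of 28 further microglia genes 20 were tested in the cortex and 18 in the hippocampus, of 25 reactive genes 18 in each, and of 17 ligands and partners of the members 15 in each. In all comparisons of injections, days and diets, 0 genes of these lists were called in either direction. C1qa, a chain of the complement protein C1q made by microglia, was at 0.34 ± 0.12 between adjuvant and saline rats in the hippocampus at day 16 (unadjusted p = 0.00734, limma adjusted p = 0.627), and at 0.09 ± 0.13 in the cortex. Tyrobp, the adaptor through which Trem2 signals, was at 0.13 ± 0.18 and 0.08 ± 0.17. Spi1, which encodes PU.1, the transcription factor that makes and keeps microglia, was at -0.05 ± 0.10 and 0.04 ± 0.10. Cx3cl1, the neuronal ligand of Cx3cr1, was at 0.10 ± 0.15 and -0.07 ± 0.12. Csf1 and Il34, ligands of the receptor that microglia need to survive, were at -0.18 ± 0.16 and -0.29 ± 0.15 in the hippocampus and -0.05 ± 0.16 and -0.20 ± 0.17 in the cortex.

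The members were next compared across rats, after each rat's group mean and chip had been removed. Each rat entered with 1 array, so variation between rats and variation between arrays were not separated within a tissue. Over repeat arrays of the same rat, the members' SD had a median of 0.829 times that between rats in the hippocampus and 0.835 in the cortex. In the hippocampus 39 of 45 pairs of members had a positive correlation, with a median Pearson r of 0.16 and a range of -0.07 to 0.37 over 84 rats. In the cortex 28 of 45 were positive, with a median of 0.03 and a range of -0.16 to 0.37 over 87 rats. Over all pairs of probes tested the median was near 0 in both tissues (0.0005 and 0.0009). The other microglia lists had lower medians, 0.05 in the hippocampus and 0.02 in the cortex for 18 and 20 further microglia genes, and 0.04 and 0.0038 for 18 reactive ones. For 15 ligands and partners it was -0.0005 and 0.01. Of other cell types, 6 endothelial genes had 0.15 in the hippocampus, with 86.67% of their pairs positive, the same share as the members, and 0.0082 in the cortex. For 9 oligodendrocyte genes it was 0.46 in the hippocampus and 0.22 in the cortex, and for 8 astrocyte genes 0.18 and 0.07. Choroid plexus genes had the highest median of the hippocampus lists, 0.59 over 8 genes with 100% of pairs positive, and 0.14 over 4 genes in the cortex. For 10 neuron genes it was 0.11 and 0.06. Lower values came from 6 red blood cell and 4 lymphocyte genes, -0.0012 and -0.08 in the hippocampus. The 6 bright members reached 0.26 and 0.10 over their 15 pairs.

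In the hippocampus 10 of 45 pairs passed a permutation test with 100000 draws at a Benjamini-Hochberg adjusted p below 0.05. By Spearman's rho 10 passed as well, 9 of them the same pairs. Laptm5 was in 5 of the 10. With P2ry12 it had r = 0.37 (rho = 0.39, permutation p = 3.80e-04, adjusted p = 0.0117), and 0.30 without the 2 rats farthest from the median. With P2ry13 it had r = 0.34 (rho = 0.33, permutation p = 0.00162, adjusted p = 0.0182, 0.31 without 2 rats). With Cx3cr1 it had r = 0.28 (rho = 0.26, permutation p = 0.00937, adjusted p = 0.0439, 0.27 without 2 rats), and it did not pass by rho (permutation adjusted p = 0.0601). Ctss with Laptm5 passed by rho only (r = 0.155, rho = 0.29, permutation adjusted p = 0.312 for r and 0.0302 for rho). Laptm5 with Fcer1g and Laptm5 with Aif1 had r = 0.33 each (rho = 0.38 and 0.30, permutation adjusted p = 0.0194 for both). Fcer1g and Ctss had r = 0.37 (rho = 0.39, permutation p = 5.50e-04, adjusted p = 0.0117) and Trem2 and Aif1 r = 0.36 (rho = 0.31, permutation p = 7.80e-04, adjusted p = 0.0117). The remaining 3 were P2ry12 with Fcer1g (0.30) and with Ctss (0.28), and P2ry13 with Cx3cr1 (0.29). P2ry12 with Ctss did not pass without background correction (permutation adjusted p = 0.0565), nor P2ry13 with Cx3cr1 when only the group was removed (permutation adjusted p = 0.0704). Of the 10 pairs, P2ry12 with Fcer1g and with Ctss joined a homeostatic to a reactive member, and pairs with Laptm5 or Aif1 held a general myeloid member. The median r was 0.26 over 3 reactive pairs, 0.14 over 12 pairs across these roles and 0.09 over 6 homeostatic pairs. Cortex medians were 0.24, 0.03 and 0.03. Most homeostatic members are dim, and a difference between the roles was not tested. Residuals carry fewer free values than rats, because groups and chips were fitted first, so these p-values are somewhat too small. Correlations of this size were not particular to the members. Of 10422 genes ranked by r with P2ry12, Laptm5 was 327th, and P2ry12 was 519th for Laptm5. Ctss was 228th for Fcer1g. Aif1 was 47th for Trem2, and Trem2 96th for Aif1.

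In the cortex 1 of 45 pairs passed, Trem2 with Fcer1g (r = 0.37, rho = 0.36, permutation p = 5.30e-04, adjusted p = 0.0238, 0.30 without 2 rats). Without the 2 cortex arrays that stand apart the pair had r = 0.43 (permutation adjusted p = 0.0018, n = 85), and Aif1 with Laptm5 passed as well (r = 0.37, rho = 0.36, permutation adjusted p = 0.0137). In the full set Aif1 and Laptm5 had r = 0.28 (permutation adjusted p = 0.0917). In the hippocampus Trem2 and Fcer1g had r = 0.26 (permutation adjusted p = 0.0732). Whether a pair's correlation differed between the tissues was not tested.

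**Figure D3:**
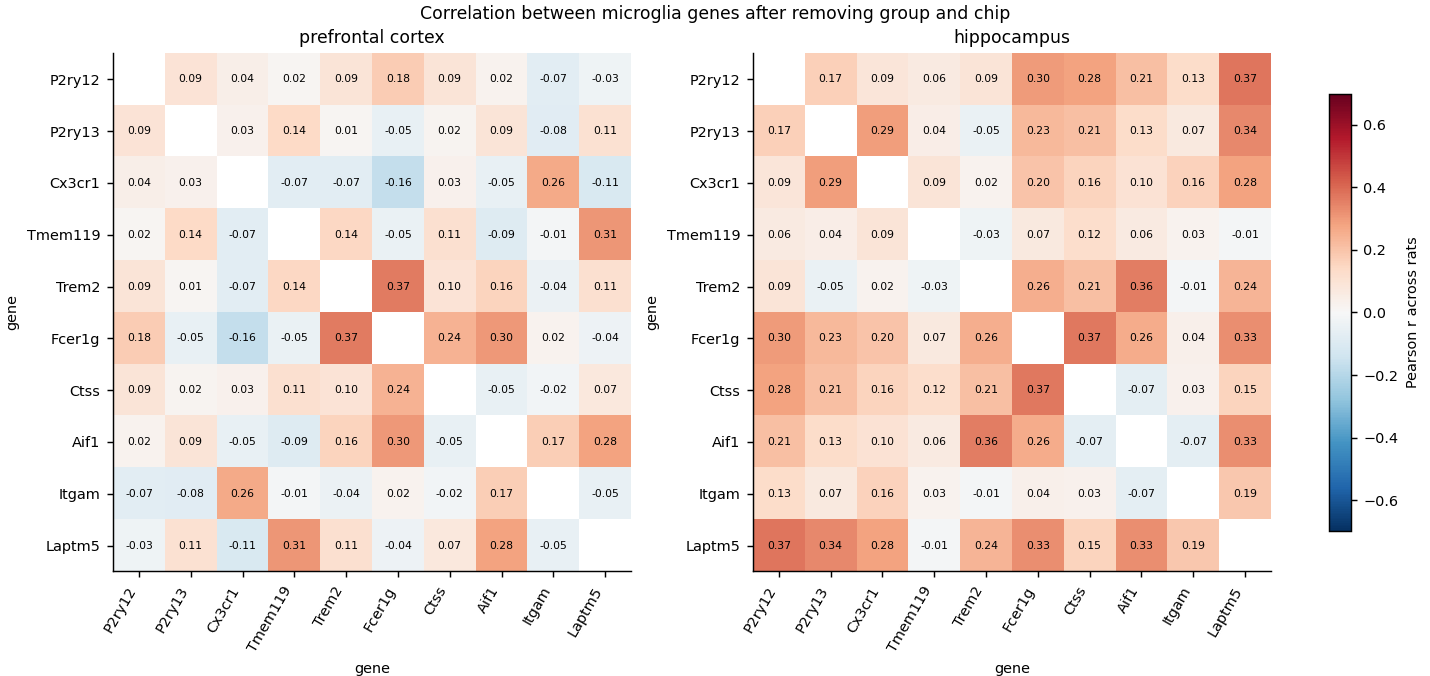
Pearson r between each pair of members across rats, after group and chip were removed, in the cortex (87 rats) and the hippocampus (84 rats). Red is positive and blue negative. The Laptm5 row is mostly red in the hippocampus (0.37 with P2ry12), while most cortex values lie near 0 and Trem2 with Fcer1g is the highest at 0.37.

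The promoters of Laptm5 and of the 2 homeostatic members that varied with it and have an entry in the RefSeq promoter table (build GRCr8) are printed here, with that of Ctss. Each runs 5′ to 3′ on the gene's strand, from 250 bases before to 50 after the gene start. Capitals mark GAGGAA or its reverse complement TTCCTC, the core of the motif bound by PU.1.
Laptm5: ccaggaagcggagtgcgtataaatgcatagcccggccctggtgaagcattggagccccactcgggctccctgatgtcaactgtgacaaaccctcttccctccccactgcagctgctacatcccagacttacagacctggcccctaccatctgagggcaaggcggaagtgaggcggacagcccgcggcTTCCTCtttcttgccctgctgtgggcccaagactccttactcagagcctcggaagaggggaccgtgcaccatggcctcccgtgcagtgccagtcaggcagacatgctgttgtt
P2ry13: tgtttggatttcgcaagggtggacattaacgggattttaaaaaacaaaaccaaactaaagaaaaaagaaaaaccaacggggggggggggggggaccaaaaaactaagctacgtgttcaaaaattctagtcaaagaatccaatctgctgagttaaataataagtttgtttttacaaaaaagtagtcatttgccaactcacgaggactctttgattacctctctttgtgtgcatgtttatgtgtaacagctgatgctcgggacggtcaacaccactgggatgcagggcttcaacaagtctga
Cx3cr1: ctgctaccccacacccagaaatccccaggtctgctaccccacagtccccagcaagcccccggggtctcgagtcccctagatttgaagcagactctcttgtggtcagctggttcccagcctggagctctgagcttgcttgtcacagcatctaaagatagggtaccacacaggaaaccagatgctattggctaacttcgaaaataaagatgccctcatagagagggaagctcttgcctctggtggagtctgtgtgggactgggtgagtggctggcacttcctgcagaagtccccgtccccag
Ctss: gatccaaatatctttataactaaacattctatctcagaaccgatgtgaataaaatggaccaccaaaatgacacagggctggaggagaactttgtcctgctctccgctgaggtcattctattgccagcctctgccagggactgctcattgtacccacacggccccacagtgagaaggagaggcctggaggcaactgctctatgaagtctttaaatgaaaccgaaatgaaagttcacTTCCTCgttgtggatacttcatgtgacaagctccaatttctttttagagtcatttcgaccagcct
The windows are chr5:148371630-148371929 (plus strand) for Laptm5, chr2:145622735-145623034 (minus strand) for P2ry13, chr8:128677017-128677316 (minus strand) for Cx3cr1 and chr2:185775146-185775445 (plus strand) for Ctss. The table held 6 of the 10 members, the other 2 being Trem2 and Itgam, and it had no entry for P2ry12, Tmem119, Fcer1g and Aif1. Searched on both strands, the 6 letters occur in 4 of these 6 windows (Laptm5, Ctss, Trem2 and Itgam) and in 27.6% of all 33469 promoters of the same length. The longer GAGGAAGT, which contains the first motif, occurs in 1 of 6 (Ctss) and in 2.4% of all. P2ry13 and Cx3cr1 hold neither in these windows. Such matches describe letters, and no binding was measured here.

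Each member was also compared between the tissues of a rat, over the 84 rats with both. Ctss had r = 0.35 (rho = 0.35, permutation p = 0.00115, adjusted p = 0.00865 over the 10 members) and P2ry12 r = 0.34 (rho = 0.30, permutation p = 0.00173, adjusted p = 0.00865). Without the 2 rats farthest from the median these were 0.28 and 0.31. Without the 2 cortex arrays that stand apart they were 0.34 and 0.37 (permutation adjusted p = 0.0088 and 0.008, n = 82). Rats with a high value of either gene in the cortex tended to have a high value in the hippocampus, which was run on other chips. The lowest cortex residual of Ctss (-0.90, with -0.32 in the hippocampus) was that of control adjuvant day 16 replicate 1. Its array had 10.54, while 8 repeat arrays of that rat ran from 11.12 to 12.18. P2ry13 had r = 0.24 (rho = 0.19, permutation adjusted p = 0.1), Fcer1g 0.20 (rho = 0.22, adjusted p = 0.181), Aif1 0.16 and Trem2 0.14. Laptm5, which varied with the most members within the hippocampus, had 0.10, and Tmem119 and Itgam had -0.0023 and -0.0036. The median over the members was 0.15, beside 0.03 over 14441 probes, of which 3.37% had an r above 0.3.

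**Figure D4:**
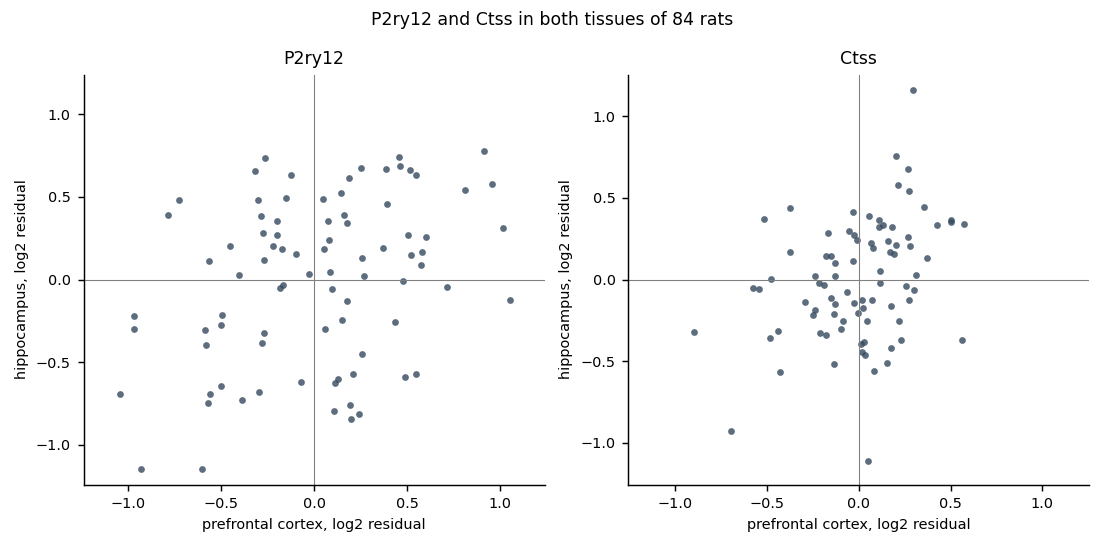
Residual log2 signal in the cortex (horizontal) against that in the hippocampus (vertical) for P2ry12 and Ctss, after group and chip were removed. Each point is 1 of 84 rats, and both clouds lean upward to the right (r = 0.34 and 0.35) with wide scatter.

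The genes whose pattern was most like the members' mean, across rats, were mostly not microglial. The likeness was Pearson's r with the mean of the residuals of the 10 members. The members were not scaled to their spread, so those that vary more weigh more. In the cortex (87 rats, 10401 genes) they were Pgm1 (0.57), Pyroxd2 (0.57), Sox17 (0.56), Mapre1 (0.56), Fli1 (0.56), Fig4 (0.55), Tprkb (0.54), Cav2 (0.52), Podxl (0.52) and C1qb (0.51). In the hippocampus (84 rats, 10413 genes) they were Praf2 (0.70), Borcs7 (0.69), RT1-DMa (0.68), Chi3l1 (0.68), Cpox (0.68), Ipo9 (0.67), Hpcal4 (0.67), Cat (0.67), Dok6 (0.66) and Gng7 (0.65). C1qb, a chain of C1q, was 10th in the cortex and 15th in the hippocampus (0.64), whereas C1qa was at rank 1878 and 4010 and Tyrobp at 1850 and 2359. Taken one by one, the nearest gene was a non-member for all 10 members in each tissue, such as Sfxn5 for Trem2 (0.59) and Fig4 for P2ry12 (0.53) in the cortex. In the hippocampus the nearest to Laptm5 was Cat (0.70) and to Ctss was Arhgap12 (0.67). Each is the highest of many values and carries no test.

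Repeat arrays of the same rat give the scatter between arrays, with differences between chips included. The SD between rats was taken after group and chip were removed, so the ratio of the SDs can be too high. One control adjuvant rat of day 16 had 9 cortex arrays, and 4 rats had 4 hippocampus arrays each. In the cortex the SD over repeat arrays was 0.21 for Trem2 and 0.20 for Fcer1g, against 0.41 and 0.36 between rats. For Ctss it was 0.48 against 0.33, and for P2ry13 0.58 against 0.51. In the hippocampus it was 0.19 against 0.42 for Ctss and 0.22 against 0.35 for Aif1, but 0.59 against 0.56 for P2ry12. The ratio of the SDs had a median of 0.829 over the members in the hippocampus and 0.835 in the cortex, beside 0.903 and 0.873 over all probes tested, and it exceeded 1 for 4 of 10 members in each tissue. The repeat SD of the cortex rests on 1 rat. In the hippocampus the P2ry12 value was 0.33 without the 3 arrays whose labels conflict.

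For Ctss of the cortex 1 of the 9 arrays lay below the rest, and the SD over the other 8 was 0.30. The array that stood for this rat in the comparisons had 10.54, and the other 8 arrays of the same rat ran from 11.12 to 12.18 with a median of 11.80. In the hippocampus, the 4 arrays of a pairfed saline rat of day 16 ran from 4.58 to 6.70 for P2ry12, and the lowest was not detected. The titles of 3 of these 4 arrays name saline and another label field names adjuvant, and the title was followed. Of the 4 arrays of that rat, 3 detected P2ry12.

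**Figure D5:**
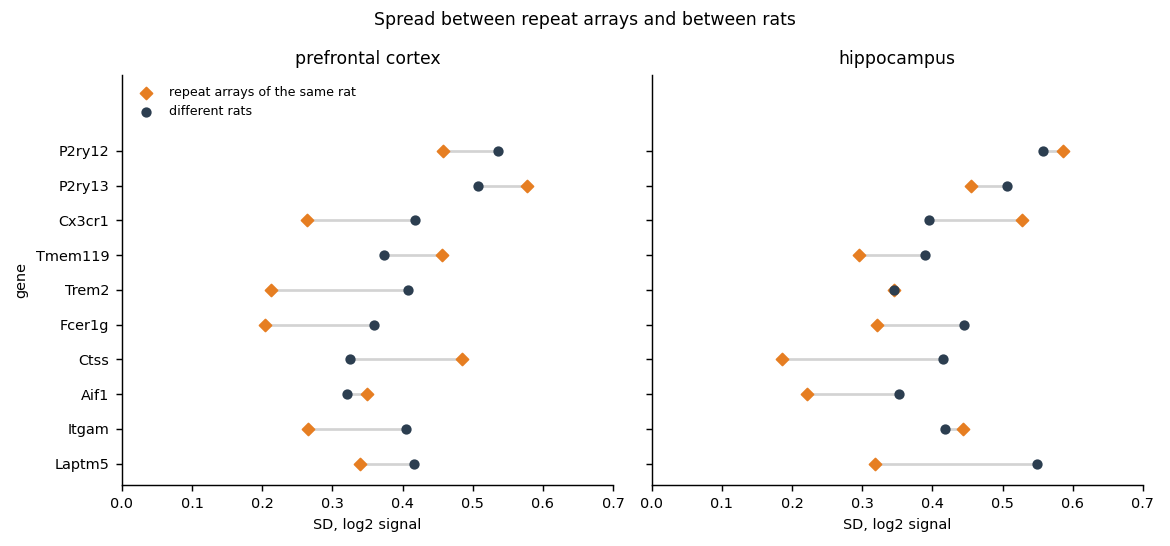
SD of log2 signal over repeat arrays of the same rat (orange diamonds) and between different rats after group and chip were removed (dark circles), for each member. In the cortex Trem2 and Fcer1g repeat well (0.21 and 0.20) and Ctss does not (0.48), and in the hippocampus Ctss does (0.19) and P2ry12 does not (0.59, or 0.33 without 3 arrays of conflicting labels).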

How the data were processed

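Signals came from Illumina rat BeadChips, 192 arrays on 16 chips of 12, 8 chips per tissue. The deposited non-normalized table gives every array a signal column and a detection p-value column, per the file headers. Its range shows the deposited signal to be on a log2 scale, and the authors' second deposited table, also log2, has the values of a quantile normalization within each tissue to within 0.175. Per the labels' protocols, 250 ng of RNA was amplified in batches of about 24, and no source used here says which samples shared a batch.

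Here the log2 values were first undone, then background-corrected by normexp with detection p-values, given an offset of 16 and quantile-normalized over all arrays (neqc, limma 3.58.1, R 4.3.3). Because of the offset, folds of dim probes are too small. One array per rat entered limma with the 12 groups of a tissue and chip as a fixed block, so every estimate is within chips. Of the other arrays, the 20 hybridization repeats entered only the spread between arrays and an alternative with rat as a random block. The 1 amplification repeat entered only that alternative. Probes detected (p below 0.05) on at least 5 arrays were tested, 15250 in the cortex and 15320 in the hippocampus, with Benjamini-Hochberg adjustment over all of them and a threshold of 0.05. Responses were compared between tissues in a joint fit with rat as a random block (correlation 0.0327). Correlations used residuals, permuted 100000 times (scipy 1.17.1, numpy 2.4.6). The number of arrays limits precision. The fit was tested on simulated data. Members, lists and tests were chosen with earlier results of these data known. All 10 members are named, along with called genes of the other lists, fixed examples and the 10 genes most like the members. Replicate numbers did not pair rats: same-numbered rats of different groups had a median correlation of 0.016 in the cortex and 0.047 in the hippocampus.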

Additional observations from a re-analysis of the deposited data

Results flagged for a closer look

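Of 240 sets made by a member, a tissue and a group, 7 had a rat whose gap to the nearest other rat took up more of the range than Dixon's 95% limit allows. Chance alone gives about 1 in 20. In the cortex, ethanol saline day 39 replicate 2 was the highest of 6 rats for both P2ry12 (8.45, others 6.83 to 7.39) and Fcer1g (11.12, others 9.46 to 9.91), and this array had the fewest detected probes of the cortex. Trem2 was lowest in control adjuvant day 39 replicate 3 (8.04, others 9.18 to 9.56). Ctss was lowest in control adjuvant day 16 replicate 1 (10.54, others 11.40 to 12.00), a rat whose 8 repeat arrays ran from 11.12 to 12.18.

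In the hippocampus all 3 lay in control adjuvant rats. Cx3cr1 was highest in day 39 replicate 2 (6.11, others 5.02 to 5.45), Laptm5 was lowest in day 39 replicate 4 (5.88, others 6.99 to 7.94), and Aif1 was lowest in day 16 replicate 3 (9.22, others 9.98 to 10.54). The array with the low Laptm5 value had the fewest detected probes of the hippocampus.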

How the results depend on the processing

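The count of members called stayed at 0 in all 24 comparisons under every alternative run for them. Comparisons between tissues were rerun only with the authors' deposited values, median scaling and the 2 arrays left out, and those inside a single diet only for the cortex with these arrays left out, again with 0 called. The alternatives were no background correction, the authors' deposited values, median scaling, no filter on dim probes, no chip term or a random one, all arrays with rat as a random block, the number of detected probes or a hemoglobin score as a covariate, array weights, and leaving out single day 16 saline rats or the 2 arrays that stand apart. With the replicate block the count was also 0, and the numbers do not pair the rats. Of 5640 recomputed member differences 0 passed and 22 changed sign by at least 1 SE, mostly under median scaling. The lowest adjusted p was 0.178, for Aif1 between adjuvant and saline rats in the hippocampus at day 16 under median scaling (-0.35, where all probes shifted by -0.12), beside 0.626 as the lowest in these 24 comparisons with the settings of the report. The hemoglobin score left 4 called probes in the cortex and 1 in the hippocampus at day 16, in place of 20 and 9, and the replicate block left 0 and 13.

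Pairs of members past the threshold in the cortex numbered 3 without background correction and 2 without the 2 arrays that stand apart, in place of 1, and 1 with only the group removed. In the hippocampus they numbered 10 without background correction (9 shared, P2ry13 with Fcer1g gained and P2ry12 with Ctss lost) and 9 with only the group removed (9 shared, P2ry13 with Cx3cr1 lost), in place of 10. Ctss and P2ry12 made up the 2 members past the threshold between tissues, and 2 passed under each alternative. The dim members P2ry13, Cx3cr1, Tmem119 and Itgam were undetected on many arrays, so small changes in them were not detectable. Leaving out the arrays that stand apart was chosen after seeing the data.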
